A study of Rattus norvegicus with 12 samples.

Results

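The genes described here encode RNA-binding proteins that control splicing and mRNA stability in the rat striatum. They were chosen by symbol: the SR splicing factors (*Srsf*), the heterogeneous nuclear ribonucleoproteins (*Hnrnp*), the numbered RNA-binding motif genes (*Rbm*), the RBFOX, CELF, ELAVL, MBNL and NOVA families, and *Cirbp*. A gene was kept when its mean count over the 12 libraries was at least 10. Of 77 matching symbols among the 17337 genes in the count table, 71 were kept. The 71 were 27 RBM genes, 16 hnRNP genes, 11 SR genes, 6 CELF genes, 4 ELAVL genes, 3 RBFOX genes, 2 MBNL genes, *Nova1* and *Cirbp*. The other 6 were *Hnrnpab*, *Hnrnpc*, *Mbnl3*, *Rbm12*, *Rbm20* and *Rbm47*, with mean counts from 0.0833 to 9.75. *Hnrnpc* and *Hnrnpab* are used by most cell types, yet they had at most 1 and 2 counts in a library, so their counts are no measure of their level.

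SR proteins bind exons and help the spliceosome to recognise them, and many hnRNPs oppose this by masking splice sites or exons. The CELF, ELAVL, MBNL, RBFOX and NOVA proteins act on smaller sets of transcripts, many of them neuronal, and MBNL and CELF proteins often drive the same exons in opposite directions. *Rbm3* and *Cirbp* are the cold-inducible pair of RNA-binding proteins, whose mRNA levels rise with mild cooling and follow the daily rhythm of body temperature.

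Poly-A RNA was sequenced from the striatum of adult male wild-type Sprague–Dawley rats, 1 rat per library, and counted per gene. By their labels, all rats of the 3 groups self-administered methamphetamine (MA) for 16 days. MA12 rats (n = 4) were killed 12 h and MA24 rats (n = 4) 24 h after the final session, and for the 4 rats labelled non-addicted the time of collection was not given in the sources used here. The study's methods describe no group called non-addicted. Whether it matches their saline group or their rats taken directly after the last session is not given in the sources used here. No library used here is labelled as one of those groups. Since MA12 and MA24 were collected at 1 time point each, length of abstinence and time of day cannot be told apart. Rat numbers carry an N in all MA24 rats, in MA12 rats 4N and 7N, and in no other rat. What the N stands for is not given. The study's methods state that RNA of all groups was extracted in 1 batch. Batches of library preparation and sequencing were not established here.

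Total counts ranged from 17908962 to 23850284 per library, and the 71 genes took 0.826% to 1.01% of them. No 2 libraries of a group agreed within counting noise (chi-square per degree of freedom from 9.72 to 28 over 18 pairs). The summed level of 12 striatal projection neuron markers was 16300 to 19600 CPM (counts scaled to library size) in non-addicted rats. It was 16000 to 20600 CPM in MA12 and 19600 to 21600 CPM in MA24. *Ppp1r1b* had the most counts of these markers, 138409 to 203294 per library. The summed level of the cortical excitatory neuron markers lay between 212 and 284 CPM in all rats. Of the cortical markers, *Lamp5* had 4174 to 6427 counts per library, *Slc17a7* 46 to 181, *Nrn1* 40 to 76, and *Neurod6* and *Neurod2* 0 to 12. In bulk tissue, fewer cells of a type and less RNA per cell cannot be told apart. Levels below are log2 CPM, scaled between libraries with TMM factors and with a prior count of 2. The median standard deviation (SD) between rats of a group was 0.133 log2 units over the 71 genes (median mean count 1388) and 0.17 over the 12091 genes with the same count minimum (median mean count 595.8). It was lowest for *Hnrnpl* at 0.0566 and highest for *Rbm46* at 0.71 and *Rbm41* at 0.622, both with low counts.

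In MA24 against MA12, *Rbm3* rose while the splicing regulators *Mbnl1* and *Celf1* and the neuronal mRNA-binding gene *Elavl3* fell. These were the 4 of 56 tested members with an adjusted p below 0.05 (edgeR quasi-likelihood test, Benjamini-Hochberg over all 10754 genes tested). They made up 7.14% of the members tested, against 5.16% of all genes, or 1.84% higher and 3.32% lower. A differentially expressed gene (DEG) also needed a fold change of at least 1.5, which only *Mbnl1* of the members met (1 gene, background 2.45%). The study's filter on the 15% of genes with the lowest variance removed the other 15 members. At an unadjusted p below 0.05 there were 14 members, 8 higher and 6 lower, or 25% against 23.6% of all genes (10.5% higher, 13.1% lower). The groups did not overlap in 10 tested members, 5 higher and 5 lower (17.9%, background 15.6%, of which 7.16% higher and 8.4% lower). Log2 fold changes were above 0 in 26 of the 56 (46.4%, background 48.3%).

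*Rbm3* measured 6.11, 6.26, 5.71 and 6.36 log2 CPM in MA12 rats 21, 31, 4N and 7N. It measured 6.57, 6.94, 6.73 and 6.55 in MA24 rats 9N, 14N, 15N and 16N. Non-addicted rats 9, 11, 12 and 13 had 6.79, 6.60, 6.52 and 6.54. Every MA12 rat lay below every rat of the other groups, and MA12 rat 4N was the lowest of all. The log2 fold change of MA24 against MA12 was 0.58 ± 0.13 (SE; adjusted p = 0.0166 by edgeR), a fold change of 1.49 that stops just short of the DEG threshold. Non-addicted against MA12 gave 0.48 ± 0.12, which missed the threshold (adjusted p = 0.101). Both comparisons use the same MA12 rats. An exact two-sided permutation test on the levels gave p = 0.0286 for each, the smallest value that 4 against 4 rats can give. After adjustment over the 6 tests made on *Rbm3* and *Cirbp* it was 0.0571. Any gene whose groups do not overlap gets this smallest value, so the test adds nothing to the lack of overlap. Of all genes, 15.6% did not overlap in MA24 against MA12 and 7.1% in non-addicted against MA12. Non-addicted against MA24 differed by -0.08 (exact permutation p = 0.571).

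*Cirbp*, the other cold-inducible gene, measured 6.56, 6.56, 6.46 and 6.35 in MA12 and 6.76, 6.64, 6.60 and 6.60 in MA24. In non-addicted rats it measured 6.60, 6.25, 6.35 and 6.34. The MA24 rats lay just above all MA12 rats, and 3 of the 4 non-addicted rats lay below every MA12 rat. MA24 against MA12 gave a log2 fold change of 0.17 ± 0.09 (SE; edgeR adjusted p = 0.284; exact permutation p = 0.0286, adjusted over the 6 tests 0.0571). This permutation p again only restates the lack of overlap. Non-addicted against MA12 gave -0.10 (exact permutation p = 0.343), and non-addicted against MA24 gave -0.27 (edgeR adjusted p = 0.201; exact permutation p = 0.0571). The order of the group means was MA12, non-addicted, MA24 for *Rbm3* and non-addicted, MA12, MA24 for *Cirbp*, and for *Cirbp* no neighbouring means differed past the threshold after adjustment.

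The promoters of the cold-inducible pair are printed so that the start regions of a gene that rose and of its partner that missed the threshold can be set side by side. Each runs from 250 bases before to 50 after the RefSeq start on assembly GRCr8, read 5′ to 3′ on the gene's strand. *Rbm3* is chrX:17020655-17020954 on the plus strand with 56.3% GC, and *Cirbp* is chr7:10189426-10189725 on the minus strand with 67.0% GC. Capitals mark exact matches, searched on both strands, to the GC box with the letters GGGCGG. They also mark the CCAAT box, the core of the cAMP response element (CRE) with the letters TGACG, and the E-box with the letters CACGTG.
Rbm3: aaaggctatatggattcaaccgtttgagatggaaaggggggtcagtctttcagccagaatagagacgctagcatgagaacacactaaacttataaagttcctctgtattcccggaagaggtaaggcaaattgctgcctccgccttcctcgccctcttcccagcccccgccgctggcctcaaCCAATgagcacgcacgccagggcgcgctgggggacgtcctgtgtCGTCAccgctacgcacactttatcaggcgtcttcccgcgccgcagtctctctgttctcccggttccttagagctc
Cirbp: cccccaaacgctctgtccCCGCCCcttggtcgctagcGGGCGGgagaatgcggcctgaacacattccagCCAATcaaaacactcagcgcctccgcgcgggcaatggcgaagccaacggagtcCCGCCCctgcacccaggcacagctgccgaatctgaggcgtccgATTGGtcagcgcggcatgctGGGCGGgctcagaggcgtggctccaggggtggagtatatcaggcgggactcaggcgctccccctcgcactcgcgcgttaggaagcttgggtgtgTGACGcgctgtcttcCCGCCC
*Rbm3* held 1 CCAAT box and 1 CRE core and no GC box, while *Cirbp* held 5 GC boxes, 2 CCAAT boxes and 1 CRE core, and neither held the E-box letters. Of 33469 RefSeq promoters of this length, 33.1% held at least 1 GC box and 37.5% at least 1 CCAAT box. A CRE core was held by 21.2% and an E-box by 6.42%. A single GC box, CCAAT box or CRE core is thus common, but these shares do not show how common 5 GC boxes in 1 promoter are.

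*Mbnl1*, which encodes muscleblind-like splicing regulator 1, had the largest fold change of the members that passed. Levels were 4.56, 4.43, 4.39 and 4.27 in the MA12 group and 3.67, 3.35, 3.96 and 3.95 in the MA24 group. The non-addicted rats had 4.20, 4.59, 4.597 and 4.31. All MA24 rats lay below all 8 other rats, and the lowest was 14N with 205 counts. MA24 against MA12 gave -0.67 ± 0.14 (SE; edgeR adjusted p = 0.0146), a drop to 0.629 of the MA12 level. Without MA24 rat 14N the value was -0.56, which is under the fold change of 1.5. Non-addicted against MA24, which uses the same MA24 rats, gave 0.68 ± 0.15 (edgeR adjusted p = 0.0497). Non-addicted against MA12 gave 0.01 ± 0.12 (edgeR adjusted p = 0.986).

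The *Mbnl1* promoter is printed for comparison with the cold-inducible pair. On GRCr8 it is chr2:146819784-146820083 on the plus strand, with 76.7% GC, and the capitals again mark motif matches.
Mbnl1: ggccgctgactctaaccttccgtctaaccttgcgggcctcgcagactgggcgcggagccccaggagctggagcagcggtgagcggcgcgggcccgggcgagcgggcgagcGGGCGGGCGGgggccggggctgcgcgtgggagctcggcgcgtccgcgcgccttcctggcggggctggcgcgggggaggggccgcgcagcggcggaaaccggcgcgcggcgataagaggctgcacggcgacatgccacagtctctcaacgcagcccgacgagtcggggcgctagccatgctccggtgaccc
Its only matches were 2 overlapping GC boxes. A promoter was found in the table for 65 of the 71 genes.

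*Celf1*, whose protein often acts against MBNL1 on shared exons, measured 6.20, 6.02, 6.10 and 6.13 in MA12 and 5.82, 5.29, 5.70 and 5.63 in MA24. Non-addicted rats 11, 12 and 13 had 6.19, 6.24 and 6.15, but non-addicted rat 9 had 5.66. MA12 and MA24 did not overlap, and rat 9 fell within the MA24 range. The log2 fold change of MA24 against MA12 was -0.49 ± 0.11 (SE; edgeR adjusted p = 0.0179). It missed the threshold without MA12 rat 21 (edgeR adjusted p = 0.0553). Non-addicted against MA24 gave 0.45 ± 0.13 (edgeR adjusted p = 0.116), and without rat 9 it was 0.56 with an adjusted p of 0.0321. Of the other CELF genes, *Celf3* was at 0.19 in MA24 against MA12 (edgeR adjusted p = 0.210) with no overlap between the groups. *Celf6* was at 0.11 (edgeR adjusted p = 0.578), *Celf2* at -0.13 (0.435), and *Celf4* and *Celf5* were removed by the variance filter.

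*Elavl3* encodes the neuronal Hu protein HuC, which binds AU-rich mRNA. It measured 6.57, 6.52, 6.31 and 6.003 in MA12 and 5.69, 5.58, 5.995 and 6.08 in MA24. The non-addicted rats sat close together at 6.15, 6.22, 6.21 and 6.13. The MA12 and MA24 ranges overlapped, and the highest values were those of the MA12 rats numbered without N. MA24 against MA12 gave -0.51 ± 0.13 (SE; edgeR adjusted p = 0.0279). This call was lost without MA12 rat 21 (edgeR adjusted p = 0.0975), without MA12 rat 31 (0.0717) and without MA24 rat 14N (0.0719). All 4 ELAVL genes had log2 fold changes below 0 in this comparison, from -0.51 to -0.22. *Elavl1*, which encodes the widely expressed HuR, was at -0.23 (edgeR adjusted p = 0.188), and the neuronal genes *Elavl4* and *Elavl2* at -0.38 (0.252) and -0.22 (0.365). Against MA24, the non-addicted rats gave 0.53 for *Elavl4* (edgeR adjusted p = 0.135), 0.32 for *Elavl3* (0.163) and 0.22 for both *Elavl1* (0.274) and *Elavl2* (0.383).

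**Figure D1:**
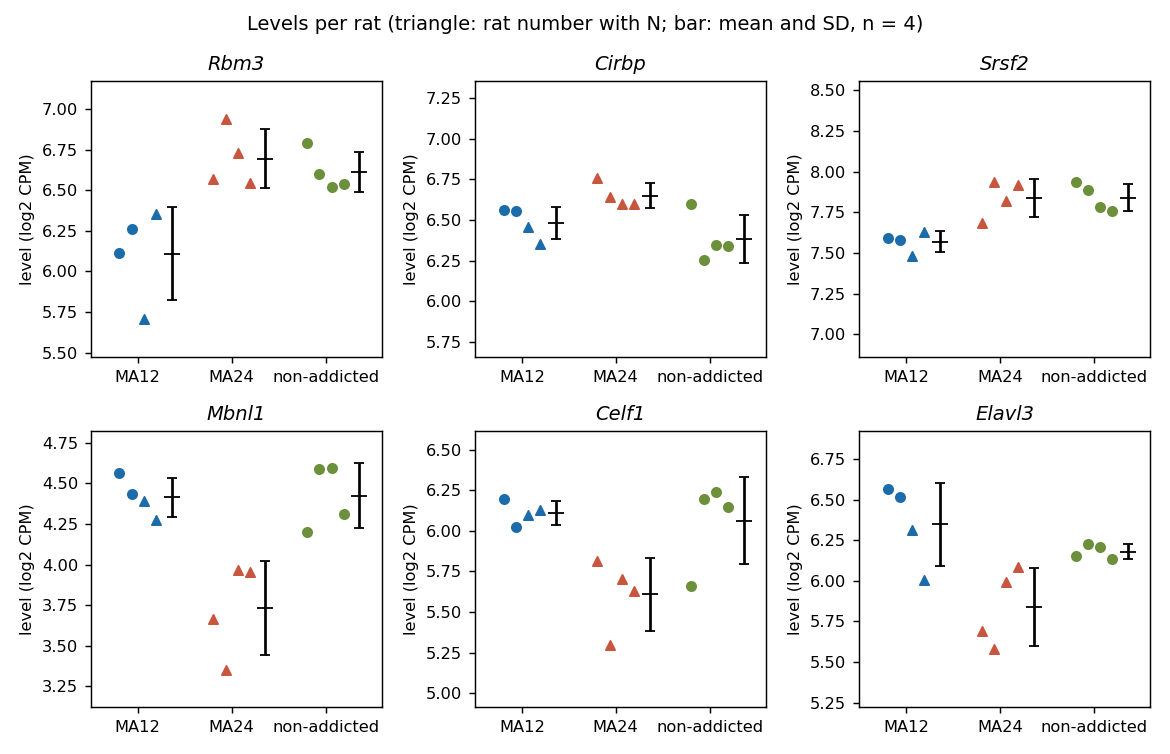
Level in log2 CPM of 6 members in each rat, grouped as MA12, MA24 and non-addicted, with bars for the mean and SD (n = 4) and triangles for rat numbers with N. Each panel spans the same range of log2 units. *Rbm3* and *Srsf2* were lowest in MA12, *Mbnl1* was lowest in MA24 (3.35 to 3.96), and non-addicted rat 9 stood apart for *Celf1* at 5.66.

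The rat numbers with and without N bear on these 4 calls. Among rats numbered with N alone (2 MA12, 4 MA24), only *Rbm3* passed (log2 fold change 0.65, edgeR adjusted p = 0.0302). There *Mbnl1* was at -0.57 (adjusted p = 0.127), *Celf1* at -0.48 (0.0900) and *Elavl3* at -0.30 (0.356), beside -0.67, -0.49 and -0.51 over all rats. With a term for the kind of number in the edgeR fit, none of the 4 passed. The values were 0.63 for *Rbm3* (adjusted p = 0.0821), -0.59 for *Mbnl1* (0.126), -0.495 for *Celf1* (0.101) and -0.32 for *Elavl3* (0.294). So the size for *Celf1* was about as large in both as over all rats, and that for *Elavl3* was smaller.

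**Figure D2:**
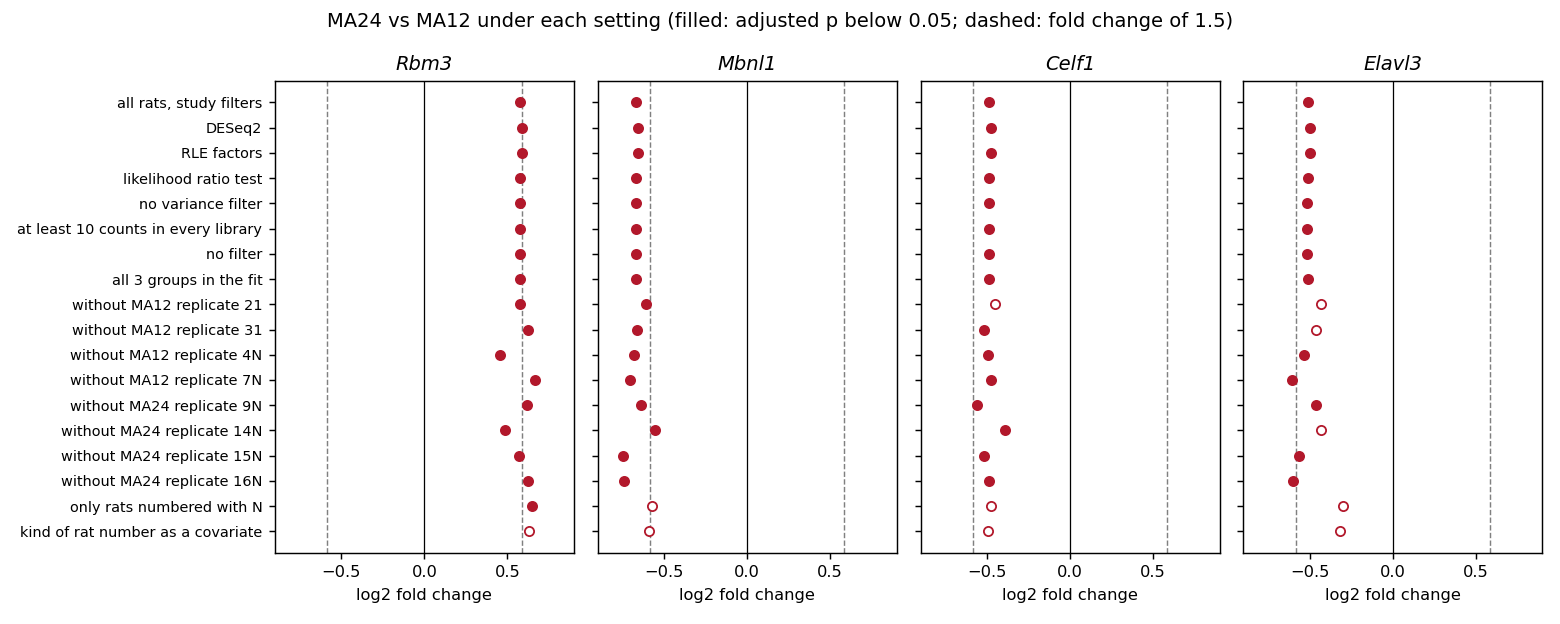
log2 fold change of MA24 against MA12 for *Rbm3*, *Mbnl1*, *Celf1* and *Elavl3* (x axis) under each setting (y axis), filled where the adjusted p was below 0.05, with dashed lines at a fold change of 1.5. *Elavl3* ranged from -0.61 to -0.30 and changed call most often, while *Rbm3* ranged from 0.46 to 0.67 and was open only in the fit with a term for the kind of number.

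The SR genes tended to lie higher in MA24 than in MA12, but none passed. Of 10 tested, 8 had log2 fold changes above 0, with a median of 0.17 against -0.02 over all genes, and the range ran from -0.24 to 0.31. *Srsf2* encodes SC35, a core exon-recognition factor, and measured 7.59, 7.58, 7.48 and 7.63 in MA12 and 7.68, 7.94, 7.82 and 7.92 in MA24. Non-addicted rats had 7.93, 7.88, 7.78 and 7.76. Every MA12 rat was below every other rat, with a log2 fold change of 0.27 ± 0.09 for MA24 (SE; edgeR adjusted p = 0.0903; DESeq2 adjusted p = 0.0255) and 0.27 for non-addicted rats (edgeR adjusted p = 0.228). *Srsf11* was at 0.31 (edgeR adjusted p = 0.105), *Srsf9* at 0.31 (0.129) and *Srsf4* at 0.25 (0.136), the last without overlap. In the opposite direction, *Srsf10*, which encodes the splicing repressor SRp38, was at -0.24 (edgeR adjusted p = 0.202).

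The hnRNP genes differed little between MA12 and MA24, and none passed. The 8 tested had log2 fold changes from -0.16 to 0.16, and none reached an unadjusted p below 0.05. The variance filter removed the other 8, among them *Hnrnpa1*, *Hnrnpa2b1* and *Hnrnpl*. *Hnrnpm*, a further one removed, measured 7.70, 7.67, 7.76 and 7.80 in MA12 and 7.82, 8.00, 7.84 and 7.89 in MA24. These ranges did not overlap, and without the variance filter the log2 fold change was 0.16 (edgeR adjusted p = 0.189).

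Among the RBM genes, 11 of the 25 tested were above 0 in MA24 against MA12, and *Rbm3* alone passed. *Rbm5*, which encodes a splicing regulator tied to apoptosis genes, was at 0.33 ± 0.12 (SE; edgeR adjusted p = 0.109), and *Rbm24* at 0.32 (0.209). *Rbm18* was at -0.16 with no overlap between groups (edgeR adjusted p = 0.324). *Rbm46* and *Rbm41* had the widest values, -1.02 ± 0.52 and -0.70 ± 0.45, but at 6 to 32 and 9 to 53 counts per library, with edgeR adjusted p = 0.238 and 0.354. *Rbm5* and *Rbm6* overlap on GRCr8, as do *Rbm14* and *Rbm4b*, and *Rbm4* and *Hnrnpd* lie next to *Rbm4b* and *Hnrnpdl*. How shared reads were counted is not given in the sources used here, so the split between such neighbours is uncertain.

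*Rbfox2* encodes a splicing factor of the RBFOX family. It measured 6.002, 5.97, 5.94 and 5.86 in MA12 and 5.74, 4.94, 5.50 and 5.83 in MA24. All MA12 rats were above all MA24 rats, and rat 14N was the lowest. The log2 fold change was -0.40 ± 0.14 (SE; edgeR adjusted p = 0.0999). *Rbfox3*, which encodes the neuronal marker NeuN, was at -0.14 (edgeR adjusted p = 0.424), *Rbfox1* was removed by the variance filter, and *Nova1*, which encodes a neuron-specific splicing factor, was at -0.22 (0.226).

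**Figure D3:**
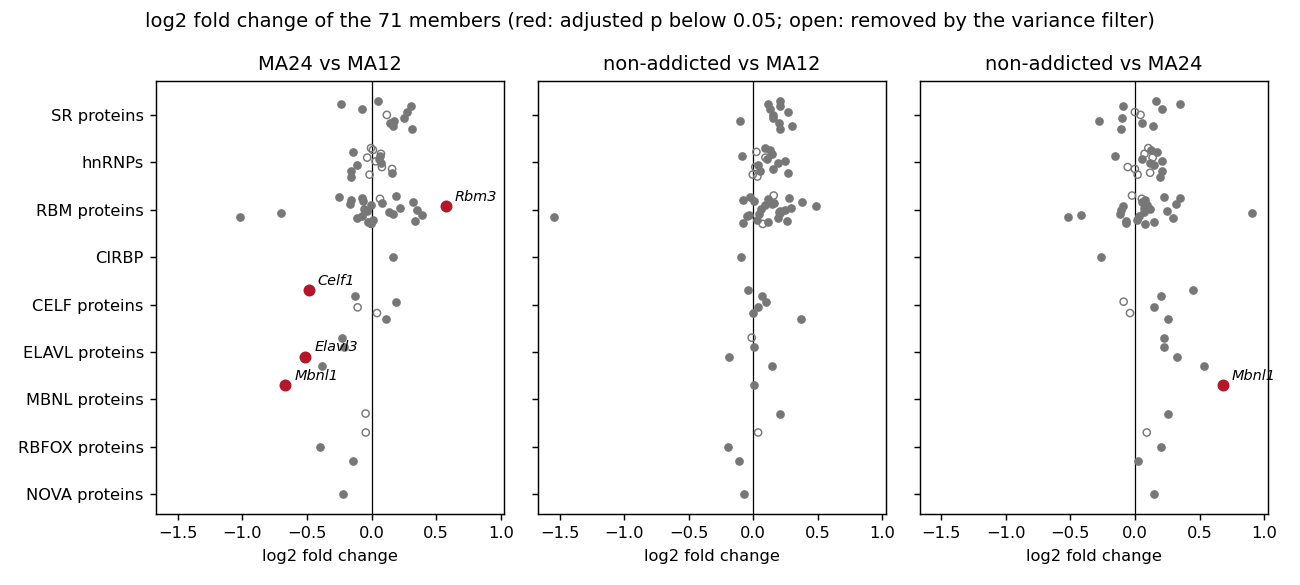
log2 fold change of each of the 71 members (points) by family (rows) in the 3 comparisons (panels), with red for an adjusted p below 0.05 and open points for members that the variance filter removed. *Rbm3*, *Mbnl1*, *Celf1* and *Elavl3* passed in MA24 against MA12, none passed in non-addicted against MA12, and *Mbnl1* passed in non-addicted against MA24. In the middle panel 47 of 62 tested members lie above 0.

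In non-addicted against MA12, 0 of 62 tested members had an adjusted p below 0.05 by edgeR (background 0.27%, DEGs 0.251%), and DESeq2 and the edgeR likelihood ratio test each called 1, *Rbm3*, at adjusted p = 0.0171 and 0.0191. At an unadjusted p below 0.05 there were 13 members, 12 higher and 1 lower, or 21% against 12.3% of all genes (7.03% lower). That count of 13 was 6 without MA12 rat 4N, 8 without MA12 rat 31 and 8 without non-addicted rat 12. It was 16 without non-addicted rat 13, 16 without MA12 rat 7N, 14 without MA12 rat 21 and 14 with DESeq2. Among rats without N it was 7, and with a term for the kind of number 6. The shares over all genes in these fits are not given here, so the counts cannot be set against a background. The higher ones made up 19.4% of the members tested (background 5.31%). Without overlap between groups there were 10, all higher (16.1%, background 7.1%, of which 3.5% higher and 3.6% lower). Of the 62, 47 had log2 fold changes above 0 (75.8%, background 47.7%), with a median of 0.12 against -0.01 over all genes.

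The SR and hnRNP genes lay mostly on that side. In non-addicted against MA12, 10 of 11 SR genes and 10 of 11 tested hnRNP genes were above 0, with medians of 0.20 and 0.13. *Srsf7* measured 6.28, 6.16, 6.08 and 6.02 in non-addicted rats and 5.93, 5.89, 5.49 and 5.97 in MA12. The groups did not overlap, MA12 rat 4N was the lowest, and the log2 fold change was 0.30 ± 0.11 (SE; edgeR adjusted p = 0.260). *Hnrnpu* encodes the nuclear scaffold protein SAF-A and measured 9.35, 9.29, 9.30 and 9.30 in non-addicted rats and 9.02, 9.05, 8.91 and 9.18 in MA12. It was at 0.27 ± 0.10 (SE; edgeR adjusted p = 0.252), again without overlap. *Hnrnph2*, which encodes a protein that binds G-rich RNA, was at 0.24 (edgeR adjusted p = 0.308). *Celf6* was at 0.37 (edgeR adjusted p = 0.155), *Rbm24* at 0.37 (0.273), *Srsf11* at 0.21 (0.391), *Mbnl2* at 0.21 (0.391) and *Srsf4* at 0.16 (0.527), all without overlap. *Rbm14*, *Rbm5* and *Srsf1* were at 0.28, 0.26 and 0.21, with overlap and edgeR adjusted p = 0.278, 0.346 and 0.395. The 1 lower member was *Rbm46* at -1.54 ± 0.61, with 1 to 14 counts in non-addicted rats (edgeR adjusted p = 0.308). *Rbm10*, removed by the variance filter, measured 6.47 to 6.62 in non-addicted rats and 6.33 to 6.38 in MA12. Without that filter it was at 0.16 (edgeR adjusted p = 0.346).

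In non-addicted against MA24, 1 of 57 tested members, *Mbnl1*, had an adjusted p below 0.05 and was a DEG (1.75%, background 0.549% and, for DEGs, 0.456%). This call was lost in the edgeR fits without non-addicted rat 11 or 12 (adjusted p = 0.136 and 0.173) and without MA24 rat 9N, 14N, 15N or 16N (0.0827, 0.0661, 0.0855 and 0.0788). At an unadjusted p below 0.05 there were 13 members, 11 higher and 2 lower (22.8%, background 17.5%, of which 8.16% lower), and the higher ones were 19.3% of those tested (background 9.33%). Without overlap between groups there were 7, all higher (12.3%, background 10%, of which 5.1% higher and 4.9% lower). Of the 57, 44 were above 0 (77.2%, background 50.3%), with a median of 0.12 against 0.00 over all genes. All MA24 rats and no non-addicted rat have an N, so kind of number and group cannot be told apart here.

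*Mbnl2*, the more counted MBNL gene, measured 8.26, 8.13, 8.22 and 8.08 in non-addicted rats and 7.92, 7.95, 7.99 and 7.81 in MA24. The groups did not overlap, at 0.25 ± 0.09 (SE; edgeR adjusted p = 0.177). *Srsf10* measured 5.01, 4.96, 4.95 and 4.94 against 4.63, 4.53, 4.72 and 4.58, also without overlap, at 0.35 ± 0.11 (SE; edgeR adjusted p = 0.125). *Rbm14*, which encodes a paraspeckle protein, was at 0.35 (edgeR adjusted p = 0.144) and *Rbm26* at 0.32 (0.145). *Srsf5* was on the other side at -0.28 (edgeR adjusted p = 0.205), next to *Cirbp*. *Celf6*, *Hnrnph2* and *Hnrnpul2* were at 0.25, 0.21 and 0.19, with edgeR adjusted p = 0.254, 0.258 and 0.293. *Hnrnpf* and *Hnrnpu*, removed by the variance filter, did not overlap between groups and were at 0.14 and 0.12 without it (edgeR adjusted p = 0.318 and 0.357).

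The mean of each family, taken over genes after centring each gene on its mean over the 12 rats, shows which rats carried these patterns. For the 2 MBNL genes, the MA24 rats had -0.31, -0.45, -0.13 and -0.22, below the lowest MA12 rat at 0.03 and the lowest non-addicted rat at 0.09. Against MA12 this rests on *Mbnl1* alone, since *Mbnl2* was at -0.05 with overlapping groups (edgeR adjusted p = 0.759 without the variance filter that removed it). For the 4 ELAVL genes, MA12 rats 21 and 31 had 0.31 and 0.22, while 4N and 7N had -0.09 and -0.01. The MA24 rats ran from -0.31 to -0.06 and met the MA12 range at rats 15N and 4N. For the 11 SR genes, MA12 rat 4N was the lowest of all at -0.25, and MA24 ran from -0.07 to 0.16. For the 16 hnRNP genes the 3 groups overlapped, and non-addicted rat 9 was the highest at 0.19.

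**Figure D4:**
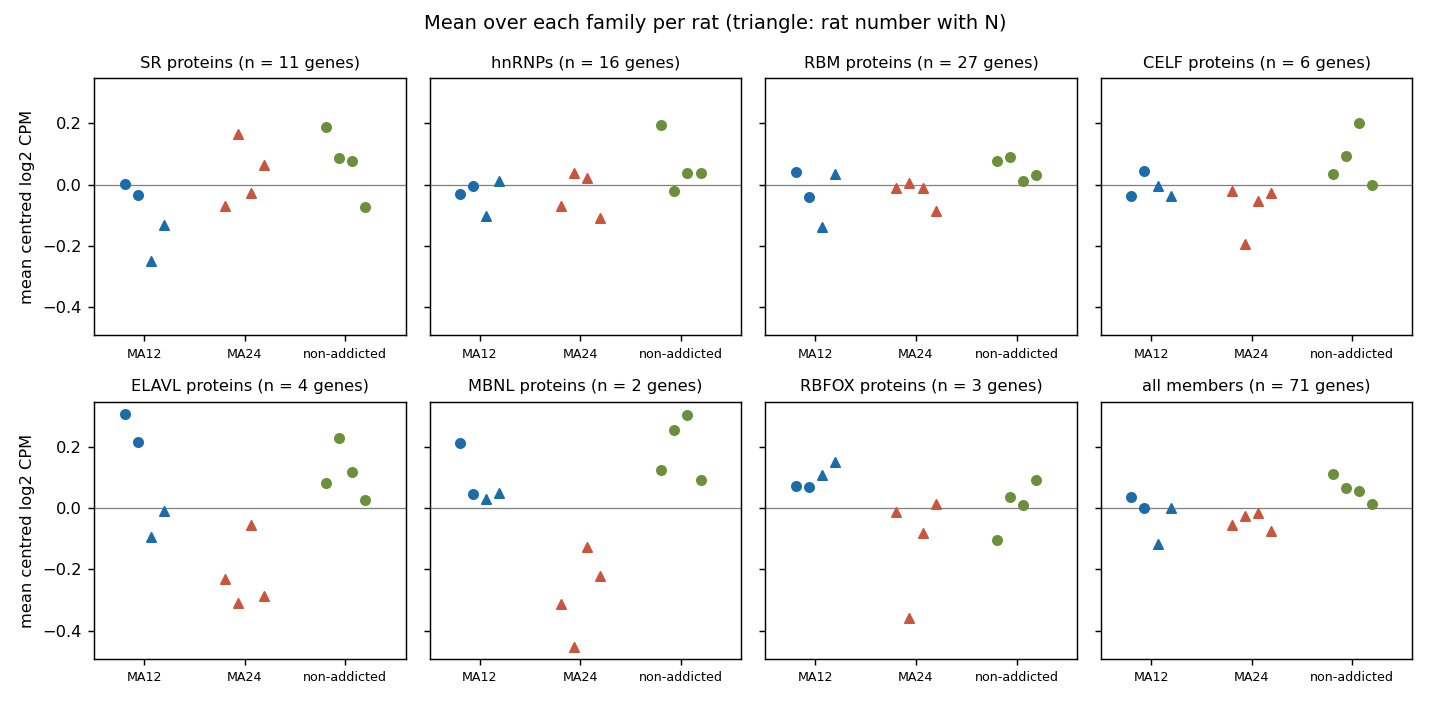
Mean centred log2 CPM over the genes of each family (y axis) in each rat, by group, with triangles for rat numbers with N. The MBNL panel separates MA24 (-0.45 to -0.13) from both other groups (from MA12 through *Mbnl1* alone, with *Mbnl2* at -0.05), and the ELAVL panel splits MA12 by rat number. The means over all 71 members stay between -0.12 and 0.11. They ran from 0.014 to 0.111 in non-addicted rats, above the -0.075 to -0.017 of MA24 rats, and from -0.117 to 0.036 in MA12 rats.

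Other genes of the splicing machinery were taken from lists of spliceosome components, SR protein kinases and further splicing regulators. In MA24 against MA12, 2 of 37 tested core spliceosome genes rose and 0 fell (5.41%, near the 5.16% of all genes). They were *Snrnp70*, which encodes a U1 snRNP protein (0.47, edgeR adjusted p = 0.0195), and *Ddx39b*, a helicase of spliceosome assembly and mRNA export (0.46, adjusted p = 0.0260). The spliceosome median was 0.06, beside -0.02 over all genes. Of 9 kinases that phosphorylate SR proteins, *Clk4* and *Clk3* rose (0.54 and 0.40, edgeR adjusted p = 0.0424 and 0.0491) and 0 fell, and neither passed without the variance filter (0.0656 and 0.0548). Of 46 further regulators, 3 rose and 0 fell (6.52%, also near the background). They were the helicase gene *Ddx17* (0.42, edgeR adjusted p = 0.0301), *Pabpn1*, which encodes the nuclear poly(A)-binding protein (0.40, 0.0406), and *Acin1*, linked to the exon junction complex (0.37, 0.0472). In non-addicted against MA12, 0 genes of these lists passed by edgeR. At an unadjusted p below 0.05 there were 8 of 37 spliceosome genes, 2 of 8 kinases and 16 of 44 further regulators, of which 8, 2 and 14 were higher (21.6%, 25% and 36.4%, background 12.3%). In non-addicted against MA24, *Sfpq*, which encodes a paraspeckle splicing factor, rose (0.55, edgeR adjusted p = 0.0241, or 0.0643 without the variance filter) and no other gene of these lists passed.

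Other gene groups moved alongside, and their part in the member results was not tested. Of 13 clock genes tested in MA24 against MA12, 4 rose and 1 fell, with *Per2* at 0.96, *Dbp* at 0.66 and *Arntl* at -0.61 (edgeR adjusted p = 0.0141, 0.00558 and 0.00605). Non-addicted rats also differed from MA12 at *Per2* (1.04, edgeR adjusted p = 0.0128) and *Arntl* (-0.60, 0.0132), but not past the threshold from MA24 (*Per2* 0.08, 0.868). Without the variance filter the *Per2* call against MA12 was lost for non-addicted rats (0.0887) and *Arntl* still passed (0.0263). The 7 tested heat shock genes had 0 calls by edgeR in MA24 against MA12 (2 at an unadjusted p below 0.05, and 1 of 13 lower past the adjusted threshold without the variance filter). In non-addicted against MA12, 0 passed by edgeR, but 5 of 7 had an unadjusted p below 0.05, 4 of them higher (71.4%, background 12.3%). In non-addicted against MA24, 5 of 10 did, all higher, and *Hspa5*, an endoplasmic reticulum chaperone gene, passed (0.57, edgeR adjusted p = 0.0497, or 0.0834 without the variance filter). The summed heat shock level was 5330 to 5820 CPM in non-addicted rats, above every MA12 rat (4800 to 5300) and every MA24 rat (4750 to 5020). Of the 2 nuclear-retained RNAs in the table, *Snhg11* rose in MA24 against MA12 (0.58, edgeR adjusted p = 0.0412, or 0.0709 without the variance filter).

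Cell type markers were read the same way. In MA24 against MA12, 1 of 11 projection neuron markers (*Pdyn*, -0.57, edgeR adjusted p = 0.00838) and 1 of 7 astrocyte markers (*Slc1a2*, -0.70, 0.0328) fell. At an unadjusted p below 0.05 there were 5 of the 11 (3 higher, 2 lower) and 2 of the 7 (1 higher, 1 lower), beside 23.6% of all genes. Of the 11, 3 did not overlap between groups (background 15.6%). Of the tested cortical, oligodendrocyte, microglial, endothelial, ependymal and choroid plexus markers 0 passed, with 1, 2, 2, 1, 1 and 0 at an unadjusted p below 0.05. *Slc1a2* no longer passed when the variance filter was left out (0.0676). Beside the members that lay higher in non-addicted than in MA12 rats, all 8 endothelial and all 8 oligodendrocyte markers were below 0. Of them 4 and 2 had an unadjusted p below 0.05 (background 12.3%). So did 3 of 7 astrocyte markers (1 higher, 2 lower), 2 of 5 choroid plexus markers (both higher) and 2 of 12 projection neuron markers (both lower). Of 7 microglial markers 6 were below 0, and of 7 ependymal markers 6 were above 0, each with 1 at an unadjusted p below 0.05. The endothelial marker *Kdr* fell (-1.08, edgeR adjusted p = 0.0128), as did the projection neuron marker *Pdyn* (-0.65, 0.0281), and neither passed without the variance filter (0.0725 and 0.0644). No other marker passed in that comparison. Beside *Mbnl1* in non-addicted against MA24, 2 of 8 endothelial markers (*Kdr* -0.85 and *Cldn5* -0.68, edgeR adjusted p = 0.0354 and 0.0241) and 1 of 8 oligodendrocyte markers (*Mbp* -0.53, 0.0443) fell, and 2 of 7 ependymal markers rose (*Foxj1* 1.08 and *Rsph1* 1.20, both 0.0354). With that filter left out, 0 of 12640 genes passed in this comparison by edgeR (2229 at an unadjusted p below 0.05), so these calls were lost too. All 8 oligodendrocyte, 7 of 8 endothelial and 5 of 7 ependymal markers had an unadjusted p below 0.05 (background 17.5%). So did 4 of 11 projection neuron and 2 of 7 microglial markers, all lower, and 3 of 5 choroid plexus markers, all higher. Of the tested cortical and astrocyte markers 0 did. Of the 11 projection neuron markers, 9 were below 0 and 3 did not overlap between groups (background 10%). Summed oligodendrocyte markers ran from 12100 to 18000 CPM in non-addicted rats and from 18800 to 22200 in MA24, endothelial markers from 359 to 504 and from 547 to 621, and ependymal markers from 65.4 to 128 and from 54.8 to 74.7. In MA12 these sums ran from 12700 to 22600, from 477 to 605 and from 50.6 to 100.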

How the data were processed

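Striatal poly-A libraries (TruSeq v2, a kit that does not mark strand) of 12 rats were used. According to the submitters' processing notes and the study's methods, the authors used cutadapt 1.18 for trimming and STAR 2.7.0e for alignment to rn6, and made the deposited gene counts with featureCounts (HTSeq 0.12.4 is also listed). The counts are raw, and strand and multi-mapping settings are not given in the sources used here. Each pair of groups was fitted in edgeR 4.0.16 (R 4.3.3) with TMM scaling and the quasi-likelihood test, on genes whose counts averaged above 4 in the 8 libraries, less the 15% that varied least in log2 CPM. Benjamini-Hochberg adjustment ran over all genes tested, and a DEG had an adjusted p below 0.05 and a fold change of at least 1.5. These are the study's thresholds, and its filters as read from its methods. The p-values test a difference between groups against the spread between rats. DESeq2 1.42.0, other scalings and filters, left-out rats and the kind of rat number were tried as alternatives. The fit was tested on simulated counts. Levels are log2 CPM (prior count 2). Promoters and gene neighbours come from RefSeq on GRCr8, matched by symbol, and are not on the build of the counts.

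The members and gene lists were chosen with earlier results of these data known. Named were *Rbm3* and *Cirbp*, every DEG member, members past the adjusted threshold (up to 8 in each direction), members removed by the variance filter whose groups do not overlap, up to 2 genes in each direction of each other list, and *Per2*, *Dbp* and *Arntl*. Any other member was named after its values were seen.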

Additional observations from a re-analysis of the deposited data

Results flagged for a closer look

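In 5 of 117 groups of 4 rats examined (named members and family means), 1 rat stood further from the rest than Dixon's 95% limit for the gap as a share of the group's range. Chance flags about 1 in 20 such groups, or 5.85 of 117. Non-addicted rat 9 was low for *Celf1* (5.66 log2 CPM, others 6.15 to 6.24, share 0.846) and high for *Hnrnpu* (9.35, others 9.29 to 9.30, share 0.855). MA12 rat 4N was low for *Srsf7* (5.49, others 5.89 to 5.97, share 0.841), and MA12 rat 7N was high for *Hnrnph2* (6.97, others 6.77 to 6.80, share 0.832). MA12 rat 21 was high for the MBNL family mean (0.213, others 0.031 to 0.049, share 0.901).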

How the results depend on the processing

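The limits include the 4 rats a group, the unexplained N of the rat numbers and, in non-addicted against MA24, the filter and fit used. In MA24 against MA12, the 4 members past the adjusted threshold became 1 among rats numbered with N (10 at an unadjusted p below 0.05) and 0 with the kind of number as a covariate (12 unadjusted). Leaving out 1 rat gave 2 to 6, the lowest without MA12 rat 21 and the highest without MA24 rat 9N. The 1 DEG became 2 with DESeq2 and with RLE factors and 0 with the covariate, and 0 to 3 with 1 rat left out (0 without MA24 rat 14N, 3 without MA12 rat 7N or MA24 rat 16N). Among rats numbered with N the count stayed at 1, but the DEG was *Rbm3* in place of *Mbnl1*. In non-addicted against MA12, the count of 0 became 1 with DESeq2 and with the likelihood ratio test, and 0 to 1 with 1 rat left out, and the DEGs also 0 to 1. The 1 was *Rbm3* each time, for left-out rats only without MA12 rat 7N. In non-addicted against MA24, the 1 member became 2 with the likelihood ratio test (*Celf1* and *Mbnl1*). Both it and the 1 DEG became 0 without the variance filter, under a minimum of 10 counts per library, without any filter, and when the 3 groups were fitted together (17 at an unadjusted p below 0.05 in each). With 1 rat left out they ran from 0 to 2 and from 0 to 1. The sign of *Mbnl1* in non-addicted against MA12 (0.01) turned to -0.053 among rats without N, to -0.067 with the covariate, and ran from -0.052 to 0.087 with 1 rat left out, with adjusted p from 0.859 to 0.997 over its alternatives. The cause was not tested in any of these. Under RLE factors or DESeq2, the median of all genes moved to -0.01 and 0.00 in MA24 against MA12, and the SR and ELAVL genes kept 8 of 10 above 0 and 4 of 4 below 0. Of the named members' other values, 780 kept their sign and side of the threshold, but most of these had no call to lose. A call was lost in 21 and gained in 8. In MA24 against MA12, the call held in 16 of 17 alternatives for *Rbm3* and 15 of 17 for *Mbnl1*. It held in 14 of 17 for *Celf1* and 12 of 17 for *Elavl3*. The *Mbnl1* call in non-addicted against MA24 held in 5 of 15. The permutation differences of *Rbm3* and *Cirbp* kept their sign throughout. No paired analysis was possible because the groups compared share no replicate numbers.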
